A study of Rattus norvegicus with 24 samples.

Results

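In rat kidney RNA, 6 genes of the proximal tubule surface and its protein uptake were followed across 4 two-colour comparisons: Anpep, Mep1b, Ggt1, Slc15a2, Lrp2 and Dab2. They were chosen by platform gene symbol, 1 probe each, with earlier results of these data known. They are 6 of 1313 named genes with a value (1561 probes). The proximal tubule reabsorbs most of what the glomerulus filters. Its apical brush border carries peptidases that cut filtered peptides and transporters that take up the products, while endocytic receptors between the microvilli retrieve filtered proteins. Its straight part reaches into the outer medulla, so tissue from that zone can carry its RNA.

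The rats were of the salt-sensitive SS strain, which becomes hypertensive on salt, and of strain 13. From what is known of the study, strain 13 is the SS rat with chromosome 13 of a salt-resistant strain in place of its own, so the rest of the genome is shared. The diets are labelled LS and HS, read here as low and high salt, and the labels give 2 weeks. The 4 comparisons set HS against LS in strain 13, HS against LS in SS, strain 13 against SS on LS, and strain 13 against SS on HS. Each has 3 replicates, and each replicate was hybridised on 2 arrays, called forward and dye swap, with the dyes exchanged. The labels say kidney and the series title says renal medulla. They give no age or number of animals. Nothing ties a replicate to an animal of its own, so the p-values cover only the spread among these RNA samples, part of which may be technical. By GRCr8 annotation 0 of the 6 genes lie on chromosome 13.

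Values are log ratios between channels as deposited. Their log base is unknown here, so no fold is stated. A value below 0 stands for less RNA on HS than on LS, or less in strain 13 than in SS. This direction is likely and not settled: it follows 13 titles that name the channels, 12 of them of strain arrays, and if it is wrong every sign turns at once. An array held values for 726 to 1402 probes, and the number of arrays limits the precision. All members except Mep1b had a value on all 24 arrays; Mep1b had 21. The 5 other titles of the SS diet arrays give no strain, and the title of the dye-swap array of replicate 3 opens like those of strain 13 while its dye text names SS on both diets. Same-numbered arrays of the SS diet comparison and the HS strain comparison may hold the same SS RNA on HS, on opposite sides of the ratio, and in replicate 3 the titles name it. In replicate 3 the titles also name the same SS RNA on LS in the SS diet and LS strain comparisons, on the same side of the ratio. Strain 13 RNAs may likewise be shared between its diet arrays and the strain arrays.

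To show the promoter regions of the adaptor Dab2, the only member past the test below, of the receptor Lrp2 that it serves, and of Anpep, whose values were the most like those of Dab2 among the other members, 300 bases from 250 before to 50 after the annotated start are printed 5′ to 3′ on the gene's strand (RefSeq, GRCr8). Capitals mark the HNF1 motif (GTTAAT, or ATTAAC on the other strand) or a CCAAT box (CCAAT, or ATTGG on the other strand); HNF1 is a transcription factor of proximal tubule cells. These lie at chr1:143195052-143195351, minus strand, for Anpep, at chr3:74754486-74754785, minus strand, for Lrp2, and at chr2:57272050-57272349, plus strand, for Dab2.
Anpep: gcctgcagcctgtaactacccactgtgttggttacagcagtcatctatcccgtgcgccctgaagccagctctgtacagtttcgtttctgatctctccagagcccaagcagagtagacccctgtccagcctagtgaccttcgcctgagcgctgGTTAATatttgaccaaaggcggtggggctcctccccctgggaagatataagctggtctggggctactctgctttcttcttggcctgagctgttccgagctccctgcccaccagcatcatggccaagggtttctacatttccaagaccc
Lrp2: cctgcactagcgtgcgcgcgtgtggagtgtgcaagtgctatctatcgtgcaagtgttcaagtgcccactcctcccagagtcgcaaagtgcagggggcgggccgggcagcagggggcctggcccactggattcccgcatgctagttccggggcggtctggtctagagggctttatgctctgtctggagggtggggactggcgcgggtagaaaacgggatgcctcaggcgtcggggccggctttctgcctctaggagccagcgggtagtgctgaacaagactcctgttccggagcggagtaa
Dab2: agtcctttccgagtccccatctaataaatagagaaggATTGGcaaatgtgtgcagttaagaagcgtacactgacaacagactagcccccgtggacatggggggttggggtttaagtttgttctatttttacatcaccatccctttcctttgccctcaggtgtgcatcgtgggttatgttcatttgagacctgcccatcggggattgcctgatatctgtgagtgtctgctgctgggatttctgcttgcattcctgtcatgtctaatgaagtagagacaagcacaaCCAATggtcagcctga

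Anpep holds 1 HNF1 motif, which begins 98 bases before the start. Mep1b holds 2, beginning 246 and 72 bases before it, and the other 4 members hold none in this window. Of all 33469 promoter windows of this length 7.45% hold this motif on either strand. The letters of a CCAAT box stand in Dab2 and Mep1b, 2 of 6, against 37.49% of all windows. In Dab2 they begin 213 bases before and 35 after the start, and in Mep1b 115 before and 39 after it. The matches after the start lie in transcribed sequence and not upstream of the gene. The letters TATAAA (or TTTATA) occur in 0 of 6 and in 14.22% of all windows. The motifs do not overlap one another here. The Lrp2 window is the richest in G and C of the 6 at 63.3%, and the median over all windows is 51.7%.

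**Figure D1:**
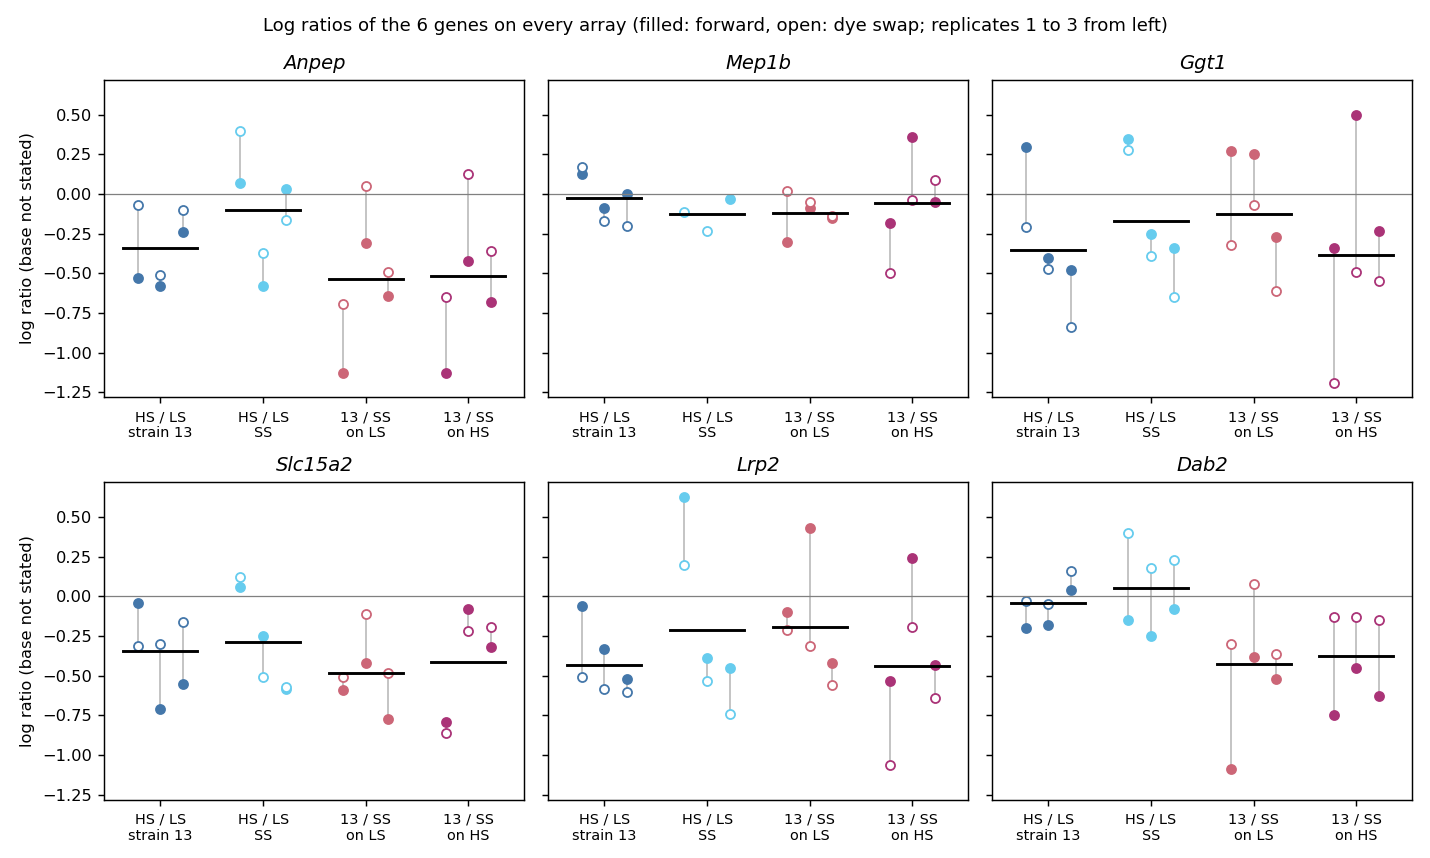
Log ratio (base not stated) of each gene on every array, by comparison; filled points are forward arrays, open points dye swaps, grey lines join the arrays of a replicate, and black bars are the mean of the replicates. Dab2 lies near 0 in both diet comparisons and below 0 on 11 of 12 strain arrays; Ggt1 and Lrp2 forward points lie above their dye swaps throughout.

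The comparison of strains on HS asks which transcripts differ between strain 13 and the salt-sensitive SS rat when both are salt loaded. Dab2 was lower in strain 13 than in SS, and it was the only member past the test. The other 5 members also had means below 0, from -0.52 for Anpep to -0.05 for Mep1b. The median of the 6 was -0.40, against 0.02 over all 1350 probes tested, of which 44.89% lay below 0. Replicate 1 stood lowest: the mean of the 6 was -0.68, -0.07 and -0.35 in replicates 1 to 3. Without replicate 1 of this comparison the fitted values ran from -0.34 for Dab2 to 0.09 for Mep1b. For the diet in SS, replicate 1 was the only one with a mean of the 6 above 0 (0.18). These 2 replicates may hold the same SS RNA on HS, and its part in both values was not tested. In RNA from whole tissue, fewer cells of a type and less RNA per cell cannot be told apart.

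Dab2 encodes a clathrin adaptor that binds the cytoplasmic tail of megalin and of other receptors and draws them into coated pits. On HS its 3 replicate means were -0.44, -0.29 and -0.39. All 6 arrays lay below 0, between -0.75 and -0.13. The fitted log ratio was -0.37 (SD 0.08, n = 3; 95% interval -0.58 to -0.17; limma adjusted p = 0.0383, unadjusted p = 0.00173), and Dab2 ranked 60 of 1350 by p. So 1 of 6 members passed as lower; over all probes tested 6.00% passed in either direction and 2.37% as lower.

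This call was made with little margin. It held in 6 of 17 alternatives, with adjusted p from 0.00958 to 0.318, and the mean stayed below 0 in all 17 (-0.61 to -0.14). Leaving out replicate 1, 2 or 3 of this comparison gave limma adjusted p = 0.235, 0.0837 and 0.132. With the replicate number as a block, which pairs samples across comparisons, Dab2 did not pass (adjusted p = 0.0622) and 2.96% of probes did. Most of the size came from 1 dye orientation: forward arrays had -0.75, -0.45 and -0.63, and dye-swap arrays -0.13, -0.13 and -0.15.

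On LS, where strains are compared without the salt load, Dab2 had replicate means of -0.70, -0.15 and -0.44. Its arrays ran from -1.09 to 0.08, with 5 of 6 below 0. The fitted value was -0.43 (SD 0.27, n = 3; interval -0.63 to -0.23; limma adjusted p = 0.0904). That adjusted p missed the threshold, although Dab2 ranked 5 of 1229 by p (unadjusted p = 0.00062). After adjustment 37 probes, Dab2 among them, share the adjusted p of 0.0904, the lowest of the comparison. The p-values and the interval rest on a variance pooled over all comparisons, and not on the SD of 0.27 alone. That SD was larger than the 0.12 and 0.08 of the diet in strain 13 and SS and the 0.08 between strains on HS. With only the samples of this comparison the limma adjusted p was 0.179. The array at -1.09 is the forward array of replicate 1, which held the fewest values of all arrays; without it the log ratio was -0.30 and the adjusted p 0.0973. Scaling every array to the same spread passed Dab2 on LS (adjusted p = 0.0472, with 1.87% of probes passing) and not on HS (adjusted p = 0.0513, with 0.963% passing).

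The diet left Dab2 close to 0 in both strains. In strain 13 the replicates had -0.12, -0.12 and 0.10 (fitted -0.04, interval -0.25 to 0.16). In SS they had 0.13, -0.04 and 0.08 (fitted 0.06, interval -0.15 to 0.26). In SS the 3 forward arrays lay below 0 and the 3 dye swaps above it. Neither passed (limma adjusted p = 0.915 and 0.779), and changes within these intervals are not excluded by the data. The strain ratio on HS exceeded that on LS by 0.06, and the diet ratios, strain 13 less SS, differed by -0.10 (interval -0.38 to 0.19, adjusted p = 0.866).

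**Figure D2:**
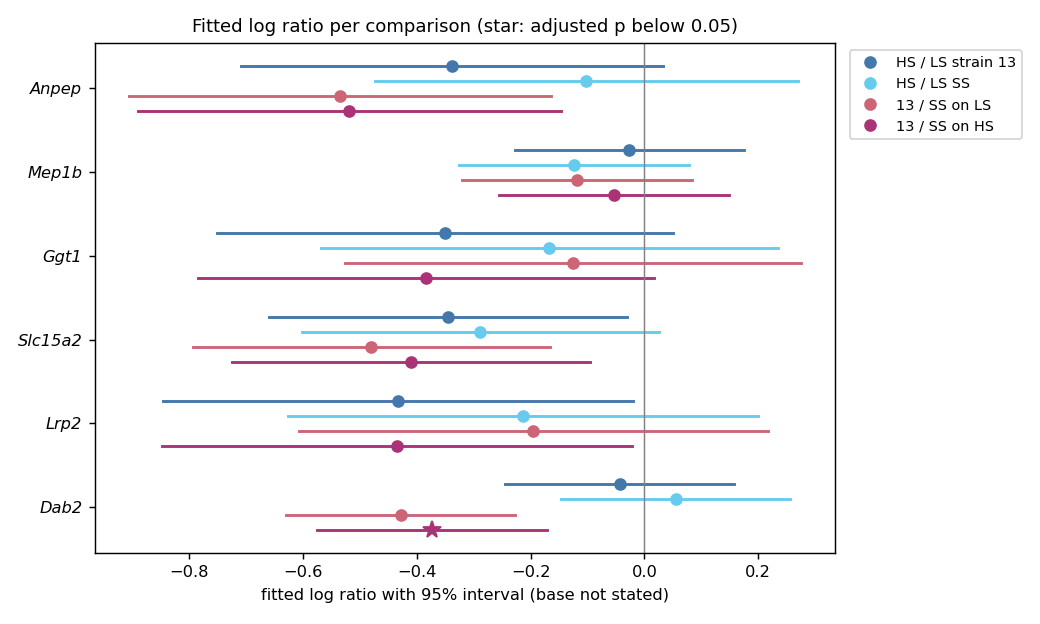
Fitted log ratio (base not stated) of each gene in the 4 comparisons with its 95% interval from limma; the star marks an adjusted p below 0.05. The Dab2 strain ratios of -0.43 on LS and -0.37 on HS lie apart from its diet ratios of -0.04 and 0.06, and Mep1b lies near 0 in all 4.

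Lrp2 encodes megalin, the large endocytic receptor for filtered proteins, vitamin carriers and hormones, and the partner of Dab2. Between strains its replicates spread more widely than those of Dab2 on HS and about equally on LS. On HS the replicates had -0.80, 0.03 and -0.54 (fitted -0.44, SD 0.42, n = 3; limma adjusted p = 0.19). On LS they had -0.16, 0.06 and -0.49 (fitted -0.20, SD 0.28; adjusted p = 0.559). Replicate 2 was the highest in both strain comparisons, and replicates 1 and 3 lay below 0.

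In strain 13 the diet ratio of Lrp2 was below 0 in every replicate. The replicates on HS against LS had -0.29, -0.46 and -0.56, and all 6 arrays lay below 0. The fitted log ratio was -0.43 (SD 0.14, n = 3; interval -0.85 to -0.02; limma unadjusted p = 0.0411, adjusted p = 0.508), so it did not pass. In SS the replicates disagreed in sign, with 0.42, -0.46 and -0.60 (fitted -0.21, SD 0.55; adjusted p = 0.548). Replicate 1 stood above 0 and the other two below.

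Anpep encodes aminopeptidase N, an abundant brush border enzyme that trims peptides from their amino end. It had the lowest strain ratios of the 6. On LS the replicates had -0.91, -0.13 and -0.57, and on HS -0.89, -0.15 and -0.52. Replicate 2 was nearest to 0 on both diets, and all 6 replicate values lay below 0. The fitted values were -0.54 (SD 0.39, n = 3; limma adjusted p = 0.116) and -0.52 (SD 0.37, n = 3; adjusted p = 0.102), so neither passed. Restricting the test to the probes measured on all 24 arrays, which leaves fewer to adjust over, gave adjusted p = 0.0486 and 0.0434, in a setting where 12.6% and 17.3% of 548 probes passed.

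The diet ratios of Anpep were smaller. In strain 13 the replicates had -0.30, -0.55 and -0.17, with all 6 arrays below 0 (fitted -0.34, limma adjusted p = 0.591). In SS they had 0.24, -0.48 and -0.07 (fitted -0.10, adjusted p = 0.779), on both sides of 0.

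Slc15a2 encodes a proton-coupled transporter with high affinity for dipeptides and tripeptides, found in the later proximal tubule. Its values lay below 0 in all but the first replicate of the SS diet comparison. The strain ratios were negative on 12 of 12 arrays, with replicates at -0.55, -0.27 and -0.63 on LS and -0.83, -0.15 and -0.26 on HS. The fitted values were -0.48 (SD 0.19, n = 3; limma adjusted p = 0.112) and -0.41 (SD 0.36, n = 3; adjusted p = 0.124).

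On the diets Slc15a2 had -0.18, -0.51 and -0.36 in strain 13 (fitted -0.35, unadjusted p = 0.0339, limma adjusted p = 0.493). In SS it had 0.09, -0.38 and -0.58 (fitted -0.29, adjusted p = 0.297). Without replicate 1 of all groups its SS diet ratio was -0.48 and passed (adjusted p = 0.0299), the only diet call of a member in the settings run. In that setting 10.7% of probes passed. Leaving out replicate 1 of the SS diet comparison alone gave the same ratio and did not pass (limma adjusted p = 0.0946).

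Ggt1 encodes the gamma-glutamyltransferase that breaks down glutathione at the cell surface. Its replicates spread widely in every comparison. On HS against LS they had 0.05, -0.44 and -0.66 in strain 13 and 0.32, -0.32 and -0.50 in SS. In strain 13 against SS they had -0.03, 0.09 and -0.44 on LS and -0.77, 0.01 and -0.39 on HS. None passed, and the lowest adjusted p by limma was 0.237, on HS, where the fitted value was -0.38 (SD 0.39, n = 3).

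Mep1b encodes the beta subunit of meprin, a brush border metalloprotease. It stayed near 0 in all 4 comparisons. Its fitted values were -0.03 and -0.12 on the diets in strain 13 and SS, and -0.12 and -0.05 between strains on LS and HS (limma adjusted p from 0.461 to 0.966). On LS the replicates had -0.14, -0.07 and -0.15, all just below 0, and on HS -0.34, 0.16 and 0.02. In the SS diet comparison each of its 3 replicates rests on 1 array, where a dye effect does not cancel.

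Set against all probes, the members stood lower in sign but seldom past the test. Because they were chosen with earlier results of these data known, the counts here describe them and do not test them as a set. Between strains, 4 of 6 members on LS and 3 of 6 on HS had all 3 replicates below 0, against 17.57% and 19.97% of the probes with 3 values. Anpep, Slc15a2 and Dab2, 3 of 6, were below 0 in all 6 strain replicates, against 8.12% of 1047 probes. On the diets the counts were 3 of 6 in strain 13 (15.81% of probes) and 1 of 6 in SS (19.51%), that one being Mep1b.

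At an unadjusted p below 0.05 by limma, 4 of 6 members were counted on HS and 3 of 6 on LS between strains, where 23.1% and 21.8% of probes were. The same count was 2 of 6 for the diet in strain 13 (9.25%) and 0 of 6 in SS (19.4%). After adjustment 0 of 6 passed for the diet in SS (2.82% of probes), in strain 13 (0.00%) and between strains on LS (0.00%). For the difference of the diet ratio between strains 0 of 6 passed (0.00% of 1249 probes) and 0 of 6 had an unadjusted p below 0.05 (8.41%). The members' differences ran from -0.24 for Anpep to 0.10 for Mep1b. The 4 comparisons share strains and diets, so these counts are not independent of one another. Nor are they independent of the choice of the members, made with earlier results of these data known.

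The 2 dye orientations differed for most members by an amount of their own. The forward value exceeded the dye-swap value in 12 of 12 replicates for Ggt1 (mean difference 0.41, SD 0.29) and for Lrp2 (0.32, SD 0.20). It was the lower one in 12 of 12 for Dab2 (-0.38, SD 0.21) and in 11 of 12 for Anpep (-0.28, SD 0.21). Slc15a2 (-0.08) and Mep1b (0.05, over 9 replicates) had both signs. Of 548 probes with both values in all 12 replicates, 84 (15.33%) kept one sign throughout. Each mean above holds both orientations, except for Mep1b in SS. Such a difference cancels in the mean if the dye effect is equal in size on the 2 arrays, which was not tested. It decides what either orientation alone would show: on HS the swaps alone passed Ggt1, Lrp2 and Slc15a2 (-0.74, -0.63 and -0.42), 3 of 6 members where 31.7% of 1295 probes passed. The forward arrays alone passed Dab2 and Anpep (-0.61 and -0.74), 2 of 6 where 9.95% of 1276 probes passed.

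**Figure D3:**
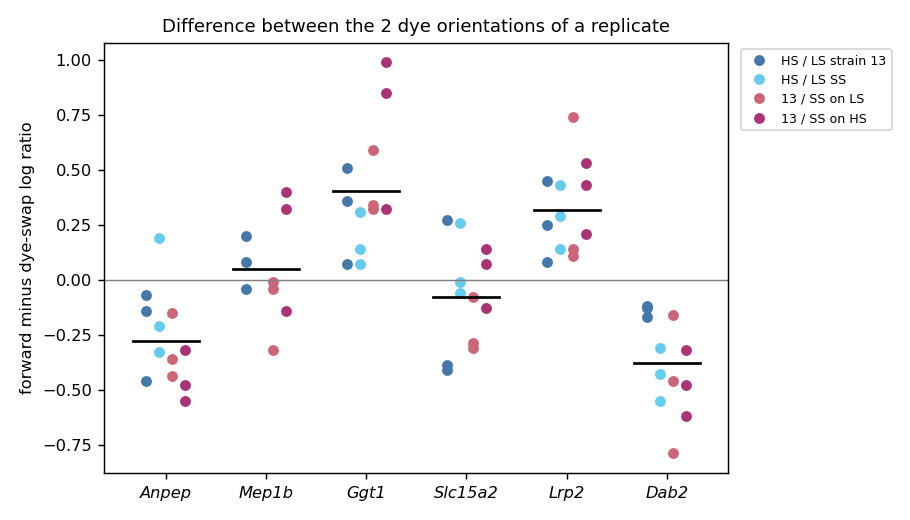
Forward minus dye-swap log ratio of each replicate, by gene and comparison, with the mean as a black bar. Ggt1 and Lrp2 lie above 0 and Dab2 below 0 in all 12 replicates, while Slc15a2 and Mep1b lie on both sides.

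Across the 12 replicates of the 4 comparisons the members followed one another to different degrees, given here as a description, since the points share RNAs and arrays. Ggt1 and Lrp2 ran closest (Pearson r = 0.94, Spearman rho = 0.94, and r = 0.93 once each comparison's mean was removed). Slc15a2 followed Lrp2 (r = 0.78) and Ggt1 (r = 0.77). Dab2 followed Anpep (r = 0.81, rho = 0.77, and r = 0.84 with the means removed), and less closely Lrp2 (r = 0.17, and 0.33 with the means removed) or Ggt1 (r = 0.07, and 0.15 with the means removed).

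Among 856 named probes with a value in all 12 replicates, those most like the mean of the 6 members were Agxt2 (r = 0.98), Hao2 (0.96), Aadat (0.95), Gsta2 (0.94) and Pacs1 (0.94), over 12 replicates. Agxt2 and Aadat are aminotransferases, Hao2 is a peroxisomal hydroxy acid oxidase and Gsta2 a glutathione transferase. For single members the closest pair was Gsta2 and Pacs1 for Slc15a2 (r = 0.98 and 0.95), Fah and Sod1 for Ggt1 (0.95 and 0.93), and Nup50 and Gamt for Lrp2 (0.94 and 0.94). It was Aadat and Agxt2 for Anpep (0.91 and 0.91), Ctsl and Rpl6 for Dab2 (0.83 and 0.81), and Ppp2cb and Dmgdh for Mep1b (0.80 and 0.77).

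**Figure D4:**
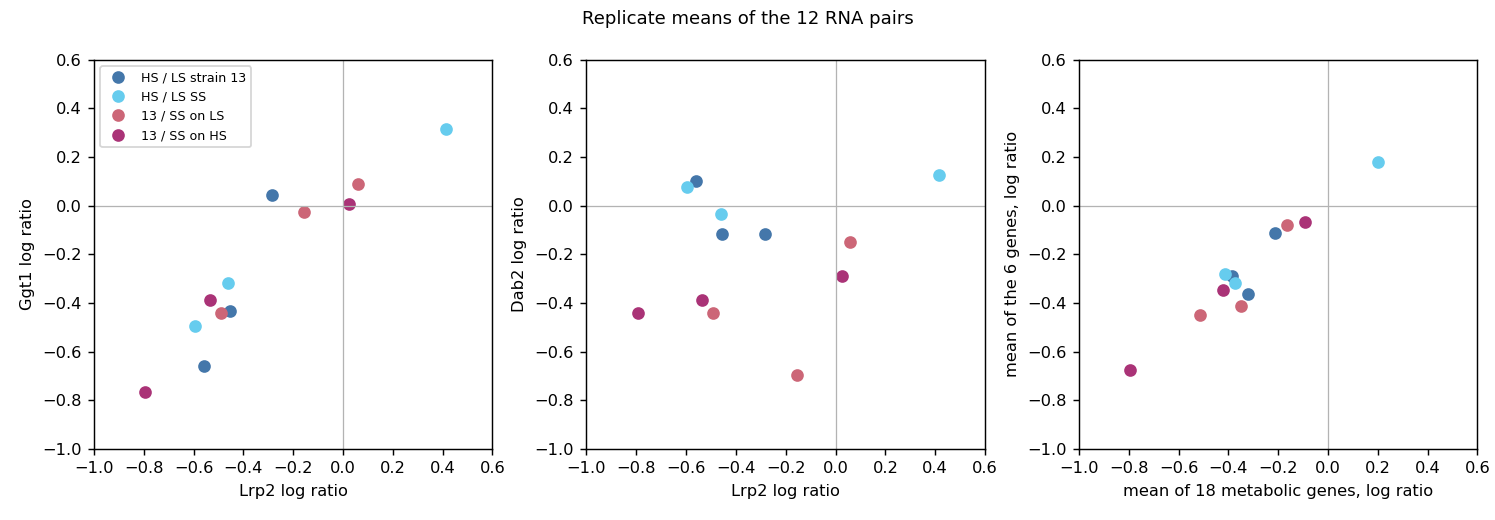
Replicate means of the 12 RNA pairs, coloured by comparison, as log ratios of unstated base. Left, Ggt1 against Lrp2 (r = 0.94); middle, Dab2 against Lrp2 (r = 0.17); right, the mean of the 6 genes against the mean of 18 metabolic genes of the proximal tubule (r = 0.97).

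Other genes of the brush border and of uptake were read from lists that were drawn up with earlier results of these data known. Of 22 further brush border genes listed, 6 were tested, and 0 of 6 passed in any comparison. On HS between strains their median was -0.21, from -0.46 for Pdzk1, a scaffold protein of the microvilli, to 0.07 for Nt5e, an ectonucleotidase. Dpp4, a dipeptidyl peptidase, had -0.44 on LS and -0.36 on HS (limma adjusted p = 0.118 and 0.162). Among the apical and basolateral transporters 1 of 6 fell on HS, Slc2a2, a facilitative glucose transporter (-0.37, adjusted p = 0.0319), and 5 did not pass, from -0.51 for the phosphate and anion transporter Slc17a1 to 0.14 for Slc1a1, a glutamate transporter.

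Genes of clathrin uptake and lysosomes had a median near 0, with single genes on both sides. Of 20 tested on HS between strains 1 fell, 1 rose and 18 did not pass, with a median of -0.01. Ctsl, a lysosomal cysteine protease, had -0.39 (SD 0.09, n = 3; limma adjusted p = 0.0236), and Ralb, a small GTPase of vesicle traffic, had 0.30 (SD 0.07, n = 3; adjusted p = 0.0383). Both had the same sign on LS without passing (-0.25 and 0.34). Below 0 on HS, Ap2s1, Ctsd, Lamp1, Lamp2 and Ap2a2 also had a limma unadjusted p below 0.05, as did Dnm1 above 0. Over all probes 23.1% did. On LS Lamp1 (-0.36), Lamp2 (-0.32) and Ralb had the same limma adjusted p as Dab2, 0.0904, and did not pass. The subunits of the AP2 adaptor, which links receptors to clathrin beside Dab2, did not pass: on HS Ap2a2 had -0.16, Ap2s1 -0.23, Ap2m1 0.07 and Ap2b1 0.05. Cubn, the receptor cubilin that works with megalin, was tested on 2 replicates and had -0.05 on LS (adjusted p = 0.897).

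Metabolic genes of the proximal tubule had replicate values close to those of the members. Of 19 tested on HS between strains 4 fell (Cyp2c23, Gatm, Cyp2e1 and Kmo), 0 rose and 15 did not pass, with a median of -0.42. Cyp2c23, an arachidonic acid epoxygenase, had -1.19, Gatm, an enzyme of creatine synthesis, -1.03, Kmo, an enzyme of tryptophan breakdown, -0.74, and the cytochrome Cyp2e1 -0.67. The highest of the list was Cyp4b1 at 0.18. The mean of 18 of them was -0.80, -0.09 and -0.42 in replicates 1 to 3 on HS, and the mean of the 6 members was -0.68, -0.07 and -0.35. On LS the pairs were -0.35 and -0.41, -0.17 and -0.08, and -0.51 and -0.45. For the diet in SS they were 0.20 and 0.18, -0.37 and -0.32, and -0.41 and -0.28. Over the 12 replicates these means had r = 0.97, and the metabolic mean had r = 0.45 with Dab2 alone. The part of the amount of proximal tubule in each RNA in the members' values was not tested.

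Markers of other cell types moved as well. All 5 collecting duct genes with a value had ratios of strain 13 against SS above 0 on both diets. On HS 3 of 5 passed as higher in strain 13 than in SS (Fxyd4, Aqp3 and Scnn1a). The mean of the 5 was 0.41, 0.27 and 0.24 there in replicates 1 to 3. Over the 12 replicates the collecting duct mean had r = -0.79 with Dab2 and -0.52 with the mean of the 6. Between strains on HS, 1 of 4 thick limb and distal tubule genes passed as higher in strain 13 than in SS (Egf). Of 7 fibroblast and muscle genes, 2 passed there as lower in strain 13 than in SS (Tnnt2 and Vim). In the SS diet comparison 5 of 6 fibroblast and muscle genes rose on HS against LS. Between strains on HS the only endothelial marker tested, Kdr, was higher in strain 13 (0.32). Of 3 leukocyte genes 1 was lower in strain 13 there (Lyz2, -1.51), and of 4 blood genes 0 passed. The 2 glomerular markers had a median of 0.12 there. The part of these cell types in the members' values was not tested.

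The strain arrays of replicate 3 carry the same text in their titles on both diets, which may mark a batch. Within it the HS ratio exceeded the LS ratio by 0.05 for Dab2, 0.05 for Anpep and 0.05 for Ggt1, differed by -0.05 for Lrp2, and was higher by 0.37 for Slc15a2 and 0.17 for Mep1b. In replicates 1 and 2 this text differs between LS and HS, and there a diet difference in the strain ratio and the batch cannot be told apart.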

How the data were processed

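The 24 two-colour cDNA arrays hold rat kidney RNA in 4 comparisons of 3 replicates with 2 arrays each. The authors deposited 1 log ratio per probe, on a log scale of unstated base. How background, filters and normalization were handled is unknown here. From the values, array means lay within 0.0049 of 0 and they were used as deposited. Groups came from the titles. The strain 13 array whose title has no replicate number was taken as the forward array of replicate 1, the place left by the other titles.

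Gene names came from the platform's table and were brought up to date through gene IDs in RefSeq (GRCr8): 1311 had an updated symbol, 5 a platform symbol only, 22 several and 223 none. The clone of each member is listed at 2 probe IDs, of which 1 holds values. All 6 members matched a promoter.

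The 2 arrays of a replicate were averaged, giving 12 RNA pairs. limma 3.58.1 in R 4.3.3 (lmFit, eBayes) fitted 4 group means to all pairs, each tested against 0 (two-sided) where at least 2 replicates had a value, with Benjamini-Hochberg adjustment over all probes at 0.05. The difference of the diet ratio between strains used the diet arrays alone. The fit was tested on simulated data. That forward and dye-swap values run the same way was checked between replicates of different comparisons: the median correlation was 0.47 for their difference, which a dye effect shares, and 0.24 for their sum. If the directions hold, the diet ratios of the strains differ by as much as the strain ratios of the diets; over 1006 probes these had r = 0.65, and turning groups gave -0.17 to 0.29.

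Same-numbered deviations of the 2 diet comparisons correlated at 0.21, 0.17 and 0.21 across probes. These comparisons share no RNA between strains, and the source of the correlation was not tested. For the SS diet with the strain comparison on HS they were -0.63, -0.56 and -0.29, below 0 in all 3, where SS RNA on HS stands on opposite sides of the ratio. The other pairs of comparisons had values on both sides of 0, and some of them may share RNA too. For the SS diet with the strain comparison on LS the values were -0.028, -0.192 and 0.405. There SS RNA on LS stands on the same side of the ratio. The members and gene lists were chosen with earlier results of these data known. All 6 members were named. Other genes were named where they passed, stood highest or lowest in a list on HS, or had a profile most like that of a member. Dpp4, Cubn, the AP2 subunits, Lamp1, Lamp2, Ctsd and Dnm1 were named after their values were seen. Alternatives were scaling, centring, complete probes, single orientations, single replicates left out, a replicate block, other variance models and samples, and arrays left out.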

Additional observations from a re-analysis of the deposited data

Results flagged for a closer look

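Of 27 sets of 6 arrays examined, 23 of them of members' values, 1 held a value far from the others: in the strain comparison on LS, replicate 1's forward array held 726 values, against 1099 on the next lowest. Chance flags about 1 in 20 such sets. On this array Anpep had -1.13 and Dab2 -1.09, the lowest of their 6. The title text that may mark a batch is found on no other array here, and its dye-swap partner carries a different one. In this replicate dye orientation and that text cannot be told apart. Without this forward array the strain ratio on LS was recomputed, and no member's call changed.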

How the results depend on the processing

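Over 525 tested combinations of a member's result with an alternative, 477 kept direction and side of the threshold, 24 changed sign, 13 gained and 11 lost a call. All 11 losses were of the only member call, Dab2 on HS, which held in 6 of 17 alternatives. Most of the 477 were results that passed in neither setting. Replicate 3 alone gave 12 strain values with no test, of which 2 moved by more than the spread (Ggt1 -0.44 and Lrp2 -0.49 on LS) and 1 changed sign within it (Mep1b 0.02 on HS). The comparisons are named here by diet or strain; as reported, 0 probes passed for the diet in strain 13, 37 for the diet in SS, 0 between strains on LS, 81 between strains on HS and 0 for the difference of diet ratios. Forward arrays alone passed 15, 118, 70 and 127 probes in the first 4, and dye swaps alone 3, 62, 51 and 411. Probes complete on 24 arrays gave 64 in SS and 69 on LS, and both orientations required 61 and 3. Equal spread gave 23 on LS and 13 on HS. Without the doubtful dye-swap array, SS had 60 and HS 73. With only the comparison's own samples SS and HS had 0. The mean of diet-array and strain-array estimates gave 5 for the difference. The replicate block gave 40 on HS (30 higher, 10 lower) and 0 members, with Dab2 at adjusted p = 0.0622; the block changed no other member's call. Members passing on LS were 1 with equal spread (1.87% of 1229 probes), 3 on complete probes (12.6% of 548) and 3 on forward arrays (70 of 1061), against 0. On HS they were 2 on complete probes (95 of 548, 17.3%), 2 on forward arrays (9.95% of 1276), 3 on dye swaps (31.7% of 1295), and 0 with equal spread (0.963% of 1350), the trend and robust variance model (5.19%) or own samples, against 1. Leaving out a replicate gave 0 to 1, 0 to 134, 0 to 1, 0 to 27 and 0 to 0 probes, and 0 to 1 members in SS and 0 to 0 elsewhere. The cause of these changes was not tested, except that fewer probes or samples enter some settings. None of the sign changes concerned a passed value. On forward arrays Mep1b had 0.0133 for the diet in strain 13 and 0.0433 between strains on HS, Dab2 -0.16 in SS and 0.0467 for the difference, and Ggt1 0.0833 on LS. On dye swaps Dab2 had 0.0267 in strain 13 and Slc15a2 0.0633 for the difference, where the mean of both estimates gave Slc15a2 0.0067. With single replicates left out, Mep1b ran from -0.115 to 0.025 in strain 13 and -0.16 to 0.09 on HS, Anpep from -0.27 to 0.085 in SS, and Ggt1 from -0.2325 to 0.0325 on LS. For the difference Slc15a2 ran from -0.2 to 0.1325, Lrp2 from -0.4108 to 0.0942 and Ggt1 from -0.3808 to 0.0575. The sparse array and each replicate of one comparison left out alone were chosen after seeing the data. Signal over background was not analysed here.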
